A study of Mus musculus with 32 samples.

Results

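RNA bound to the ribosomes of lumbar spinal-cord astrocytes was compared between mice 7 weeks after a fracture and mice without one. The comparison took the 12 of 32 libraries whose titles name a Trap sample of either state. There were 6 Trap libraries titled 7 weeks post-Fx, from 3 female and 3 male samples, and 6 Trap libraries titled Uninjured, from 3 female and 3 male samples. Mice of both groups carried the genotype that the labels spell Aldhl1l-CreER;Rpl22-HA, and the series' design text writes the first allele as Aldh1l1-CreER. The ribosomal protein Rpl22 therefore carries an HA tag in cells in which the Aldh1l1 driver has activated Cre, and anti-HA beads pull down the RNA on tagged ribosomes. The fracture serves to model Complex Regional Pain Syndrome in mice. Age, the fractured bone and the tamoxifen schedule that an inducible Cre needs are not stated in the sources used here. Whether libraries of a group stem from different animals is not said either, and p-values measure only the spread between libraries, which may be technical. One library, male 7 weeks replicate 2, stood apart from the other 11, and the comparison of both sexes is given with it and without it.

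Astrocytes take up glutamate and potassium at synapses, store the spinal cord's glycogen, pass lactate to neurons and make cholesterol for them. After damage they can become reactive, a state marked by more of the filament protein GFAP and by secreted proteins of inflammation. Spinal astrocytes are studied in persistent pain because they touch the synapses that carry pain signals in the dorsal horn. RNA on tagged ribosomes is read as the set of messages a cell type is translating, the translatome.

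The 12 libraries held 17124034 to 23189228 estimated counts each. Levels are given in CPM, counts scaled to the library total after TMM normalization. The labelled cell type was borne out by its markers. The 25 astrocyte markers summed to 86490.5 to 94566 CPM in 7 week Trap libraries and 88323 to 95541 CPM in uninjured Trap libraries, against 14453 to 15378 CPM in the 4 Input libraries of whole tissue of the same states. None of the 25 was at 0 in every Trap library. Neuronal markers summed to 964 to 1542 CPM at 7 weeks and 1020.2 to 1312 CPM without injury, a median of 0.0791 times their Input level. For microglia and macrophages the ratio was 0.115, for endothelial cells 0.0810 and for oligodendrocytes 0.162. Genes of mural cells and fibroblasts, at 1.45 times their Input level, and of red blood cells and neutrophils, at 3.73 times, were not depleted. In such bulk libraries fewer cells of a type and less RNA per cell cannot be told apart.

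No gene was called at 7 weeks. Counts were tested with edgeR's quasi-likelihood test with sex as a covariate, and a call is an adjusted p (Benjamini-Hochberg over all genes tested) under 0.05. Of 14933 genes tested in the 12 libraries, 0 were called (0%), and the smallest adjusted p was 1.00. At an unadjusted p under 0.05 there were 398 genes (2.67%), of which 258 had higher values at 7 weeks (1.73%) and 140 lower values (0.938%). DESeq2's test on the same libraries also called 0 genes and had 384 at an unadjusted p under 0.05. Without male 7 weeks replicate 2, edgeR again called 0 of 15259 genes (0%), with a smallest adjusted p of 0.202. The number of genes at an unadjusted p under 0.05 was then 1007 (6.6%), 547 higher (3.58%) and 460 lower (3.01%), over 2 times the number in the 12 libraries. A gene that does not pass the test is not shown to be unchanged, and its interval says how far it could have moved. Over the 13053 genes with a mean of at least 1 CPM, the 95% interval of the fold lay inside 2-fold either way for 98.2% and inside 1.5-fold for 87.4%. Over the 8646 genes with at least 10 CPM these shares were 99.7% and 98.3%. Without male 7 weeks replicate 2 the shares above 1 CPM were 97.7% and 85.8%, and above 10 CPM they were 99.6% and 97.7%. These intervals are per gene and are not adjusted for the number of genes.

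Male 7 weeks replicate 2 differed from the mean of the others by transcript length, more than any other library did. Its median correlation with the other 11, over log2 CPM, was 0.971, while that of the others lay between 0.981 and 0.984. It held the highest of the 12 values for 25.9% of genes and the lowest for 26.4%, where an even share is 8.33%. Among 8597 genes with at least 10 CPM, the 500 that lay farthest above the mean of the other 11 had a median transcript length of 694 bases. The 500 farthest below had one of 2794 bases, and all 8597 genes one of 1381 bases. Divided by length into 5 groups, genes of the shortest group (297 to 747 bases) had a median log2 difference of 0.18 from the other 11 libraries, and those of the longest group (2774 bases and over) one of -0.34. Over these genes the Spearman correlation of a library's differences with length, given as a description, was -0.43 in male 7 weeks replicate 2. It was -0.21 in male uninjured replicate 2, which went the same way by less, and -0.078 to 0.29 in the other 10 libraries. The comparison of 11 libraries still holds male uninjured replicate 2. The chromatin remodeller gene Srcap, a long transcript, had 2.11 CPM in male 7 weeks replicate 2 and 9.63 to 18.8 CPM in the other 11.

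Messages for ribosomal proteins are among the shortest of a cell. The coding sequences of a pair of them, which code for proteins of the large ribosomal subunit, are printed to show how short these messages are. They are GENCODE M21 transcripts of GRCm38, on the minus strand, with the start and stop codons in capitals. The Rpl41 gene lies at chr10:128548114-128549305 and the Rpl39 gene at chrX:37082520-37085402. The transcripts used have 544 bases for Rpl41 and 612 bases for Rpl39, and the coding parts have 78 and 156 bases.
Rpl41: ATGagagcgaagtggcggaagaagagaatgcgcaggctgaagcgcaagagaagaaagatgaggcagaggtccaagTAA
Rpl39: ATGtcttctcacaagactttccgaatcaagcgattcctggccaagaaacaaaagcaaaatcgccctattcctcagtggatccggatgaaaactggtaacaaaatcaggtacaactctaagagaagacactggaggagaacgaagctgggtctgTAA
Rpl41 had 52.9, 68.3, 68.5, 78.0 and 78.5 CPM in the other 7 week libraries and 123 CPM in male 7 weeks replicate 2, against 63.5 to 81.5 CPM in the 6 uninjured libraries. Rpl39 had 29.4, 31.4, 35.3, 39.9 and 42.4 CPM in the other 7 week libraries and 61.1 CPM in male 7 weeks replicate 2, against 29.4 to 37.2 CPM in uninjured libraries. Only male 7 weeks replicate 2 lay above the uninjured range for Rpl41, and for Rpl39 it did so by the widest margin. The log2 fold of Rpl41 was 0.12 ± 0.15 (standard error of the fit) with that library and -0.061 ± 0.093 without it. For Rpl39 it was 0.30 ± 0.15 with it and 0.12 ± 0.092 without it, and neither gene was called (edgeR adjusted p 1.00 with the library, 0.919 and 0.834 without it).

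**Figure D1:**
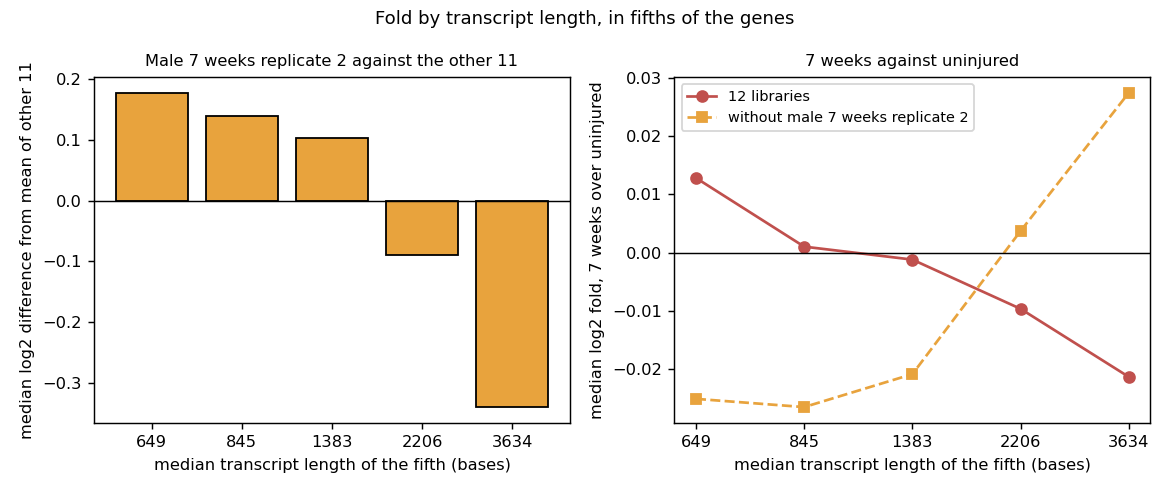
Left, the median log2 difference of male 7 weeks replicate 2 from the mean of the other 11 Trap libraries, in 5 groups of genes by transcript length (median length in bases under each bar). Right, the median log2 fold of 7 weeks over uninjured in the same groups with that library (filled circles) and without it (squares): the slope with length turns round, from 0.013 in the shortest and -0.021 in the longest group with it, to -0.025 and 0.027 without it.

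The ribosomal list gave the widest gap between the fits with and without that library. All 76 tested cytosolic ribosomal protein genes had higher values at 7 weeks in the 12 libraries, with a median log2 fold of 0.18, beside 52.8% of all genes tested and a median of 0.0067. Without male 7 weeks replicate 2 the count was 38 of 76, with a median of 0.00097, beside 50.6% of all genes. None of the 76 was called in either fit. The mean log2 CPM of the list was 7.18 in male 7 weeks replicate 2 and 6.19 to 6.34 in the other 7 week libraries, against 6.14 to 6.41 in uninjured libraries. Rpl34, of the large subunit, had the smallest p of the list, with 58.4, 69.5 and 121 CPM as its lowest, median and highest values at 7 weeks, against 60.04, 61.6 and 64.5 CPM without injury. The groups overlapped, and its log2 fold was 0.31 ± 0.13 with the library and 0.13 ± 0.058 without it. Rpl22, whose tagged copy carries the pull-down, had 52.9, 60.4 and 72.3 CPM at 7 weeks and 50.2, 54.7 and 57.1 CPM without injury, a log2 fold of 0.16 ± 0.078, and 0.10 ± 0.061 without the library. Subunits of the mitochondrial respiratory chain that nuclear genes encode also turned over. Of 69 genes, 58 had higher values with the library (median 0.068) and 4 without it (median -0.072), and none was called. Its mean log2 CPM was 7.92 in male 7 weeks replicate 2 and 7.10 to 7.29 in the other 7 week libraries, against 7.16 to 7.41 in uninjured ones. The complex I subunits Ndufb4 and Ndufa1 had the lowest folds without the library, at -0.23 ± 0.09 and -0.23 ± 0.075, against -0.049 and -0.015 with it. Of 24 glutathione and antioxidant genes, 20 had higher values with it and 8 without it. The median transcript length was 634.5 bases in the ribosomal list, 595.5 in the respiratory list and 849.5 in the antioxidant list, beside 1495 bases over all genes tested.

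**Figure D2:**
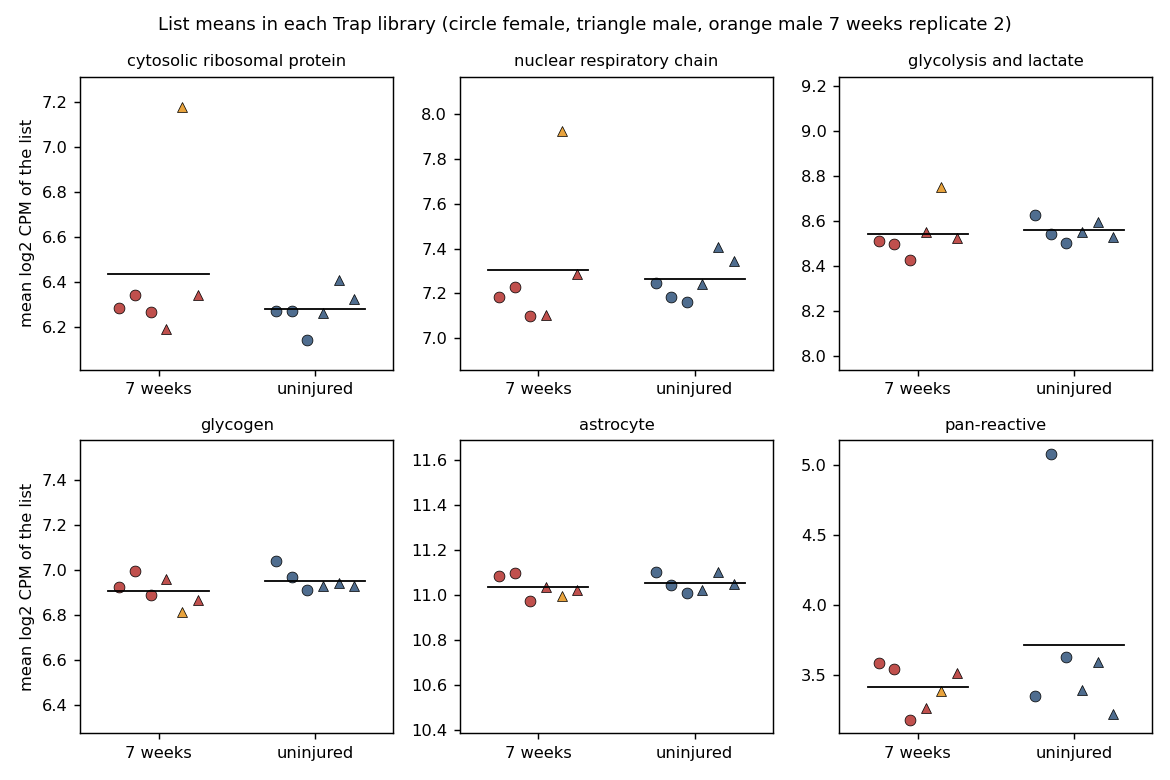
Mean log2 CPM of 6 lists in each Trap library, 7 weeks on the left and uninjured on the right of each panel, with circles for females, triangles for males, orange for male 7 weeks replicate 2 and a line at the group mean (the axes differ between panels). The orange triangle stands alone for ribosomal (7.18) and respiratory chain (7.92) genes, and female uninjured replicate 2 stands alone for pan-reactive genes (5.08).

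The genes that define spinal astrocytes and carry out their transport work showed no called gene, and the intervals of all 25 markers lay inside 1.5-fold in both fits. Gfap, the intermediate filament of astrocytes, had 9126, 10399 and 11819 CPM as its lowest, median and highest values at 7 weeks, against 8695, 10714 and 11739.6 CPM without injury. The ranges overlapped over most of their width. Its log2 fold was -0.029 ± 0.071, with a 95% interval of -0.18 to 0.12, and -0.022 ± 0.071 without male 7 weeks replicate 2. The connexin Gja1, which joins astrocytes through gap junctions, had 2449.8, 2570.1 and 2666 CPM at 7 weeks and 2481, 2624 and 2807 CPM without injury, a log2 fold of -0.032 ± 0.05 and -0.038 ± 0.043 without that library. Aldh1l1, the folate enzyme whose promoter drives Cre here, had 615, 671 and 723 CPM at 7 weeks and 599, 715 and 755 CPM without injury, with a log2 fold of -0.058 ± 0.064 and -0.074 ± 0.056 without it. The water channel Aqp4 and the glutamate carrier Slc1a2 were each lowest in male 7 weeks replicate 2. That library had 1708 CPM of Aqp4, while the other 7 week libraries had 2368 to 2639 CPM and the uninjured libraries 2168 to 2810.3 CPM. It had 7383 CPM of Slc1a2, while the other 7 week libraries had 11079 to 13262 CPM and the uninjured libraries 10877 to 12266 CPM. Leaving it out changed the sign of both folds, from -0.045 ± 0.089 to 0.031 ± 0.057 for Aqp4 and from -0.017 ± 0.10 to 0.082 ± 0.05 for Slc1a2. The other main glutamate carrier, Slc1a3, had 467, 638 and 707 CPM at 7 weeks and 523, 589 and 676 CPM without injury, with log2 folds of 0.063 ± 0.07 and 0.12 ± 0.046. Its interval without the library, 0.02 to 0.21, excludes 0 at the unadjusted level, while its adjusted p was 0.738 (edgeR, Benjamini-Hochberg). The potassium channel Kcnj10 had 4000.5, 5102 and 5847 CPM at 7 weeks and 5194, 5352 and 5429 CPM without injury, and a log2 fold of -0.086 ± 0.072 with and -0.025 ± 0.045 without the library. Apoe, the lipid carrier, went the other way in male 7 weeks replicate 2, at 28512 CPM, while the other 7 week libraries had 15536 to 17433 CPM, and its log2 fold was 0.10 ± 0.11 with and -0.04 ± 0.049 without that library. Across the 25 astrocyte markers 9 had higher and 16 lower values with it (median -0.011), against 6 higher and 19 lower without it (median -0.024). Of 19 gap junction, potassium and water genes 4 had higher values (median -0.036), and 7 without the library (median -0.026). Among the 17 tested genes of glutamate and GABA handling, the metabotropic glutamate receptor Grm5 had the smallest p, with 8.53, 10.5 and 17.9 CPM at 7 weeks and 12.2, 16.2 and 18.7 CPM without injury. The groups overlapped, and its log2 fold was -0.43 ± 0.15 with and -0.32 ± 0.13 without the library.

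**Figure D3:**
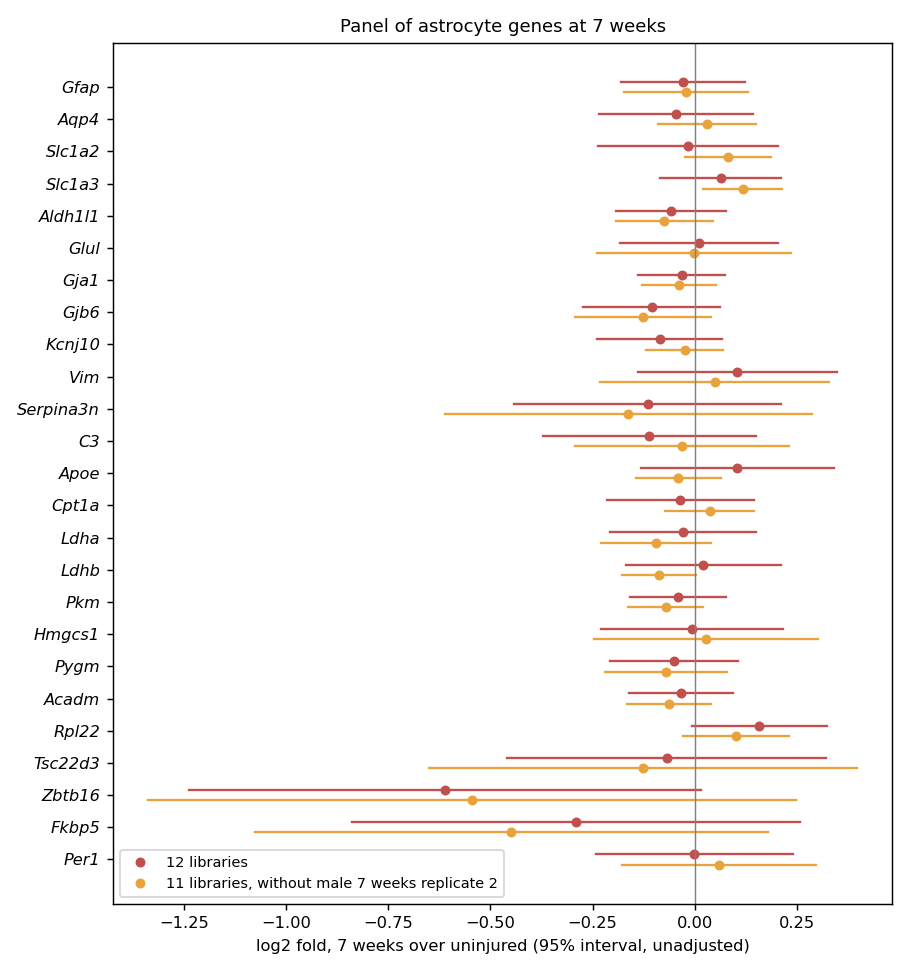
Log2 folds of 7 weeks over uninjured for 25 panel genes, with unadjusted 95% intervals, from 12 libraries (red) and from 11 without male 7 weeks replicate 2 (orange). Lcn2 is left out because its wide interval would set the scale; the intervals of Gfap, Gja1 and Pkm are narrow around 0 and those of Zbtb16 and Fkbp5 are wide.

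Astrocyte energy metabolism showed no called gene. Of 21 tested genes of glycolysis and lactate transport 12 had higher values at 7 weeks, with a median log2 fold of 0.0037, and 3 of 21 without male 7 weeks replicate 2, with a median of -0.06. The median transcript length of these genes was 747 bases. The pyruvate kinase gene Pkm had 2336, 2597 and 2922 CPM at 7 weeks and 2509.9, 2688 and 2769 CPM without injury. Its log2 fold was -0.04 ± 0.055, inside an interval of -0.16 to 0.078, and -0.071 ± 0.044 without the library. Ldha, which makes lactate, had log2 folds of -0.028 ± 0.084 and -0.095 ± 0.064, and Ldhb, which favours the way back to pyruvate, of 0.021 ± 0.089 and -0.088 ± 0.043. The hexokinase Hk2, at 3.35, 3.78 and 5.10 CPM at 7 weeks and 3.94, 4.33 and 7.08 CPM without injury, had the smallest p of the list and log2 folds of -0.27 ± 0.16 and -0.32 ± 0.16, with overlapping groups. Its highest uninjured value, 7.08 CPM, belonged to female uninjured replicate 1. In the brain and cord glycogen is held mainly by astrocytes. Of 17 glycogen genes 5 had higher values (median -0.052), 7 without the library (median -0.039), and every interval lay inside 1.5-fold in both fits. The glycogen phosphorylase Pygm had 788, 937 and 981 CPM at 7 weeks and 809.8, 964 and 1028 CPM without injury, with log2 folds of -0.051 ± 0.074 and -0.07 ± 0.07. The 32 pyruvate and tricarboxylic acid cycle genes had 12 higher (median -0.0026), and 6 without the library (median -0.041), again with all intervals inside 1.5-fold. Pdk1, the kinase that shuts off pyruvate dehydrogenase, had 31.7, 42.6 and 44.1 CPM at 7 weeks and 40.2, 46.3 and 52.6 CPM without injury. Its log2 fold was -0.18 ± 0.081, unadjusted p 0.0441, and -0.12 ± 0.062 without the library. Of 28 fatty acid oxidation genes 14 had higher values with it and 7 without it, with medians of 0.001 and -0.027. Median transcript length was 740.5 bases in the pyruvate and tricarboxylic acid list and 934.75 in this one, beside 1495 over all genes tested. Without the library, 37.6% of genes with at least 10 CPM and 297 to 747 bases had higher values. The share was 35.7% at 747.5 to 1046 bases and 62.2% at 2774 bases and over. The part of transcript length in these lists was not tested. Cpt1a, which admits fatty acids to mitochondria, had log2 folds of -0.035 ± 0.085 and 0.037 ± 0.052, and the acyl-CoA dehydrogenase Acadm of -0.034 ± 0.06 and -0.063 ± 0.049. Cholesterol synthesis and transport had 9 of 26 higher with the library and 8 without it, and medians of -0.016 and -0.032. Hmgcs1, an early enzyme of that route, had 773, 798 and 1019 CPM at 7 weeks and 644, 878 and 1017 CPM without injury, with log2 folds of -0.0071 ± 0.10 and 0.028 ± 0.12.

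**Figure D4:**
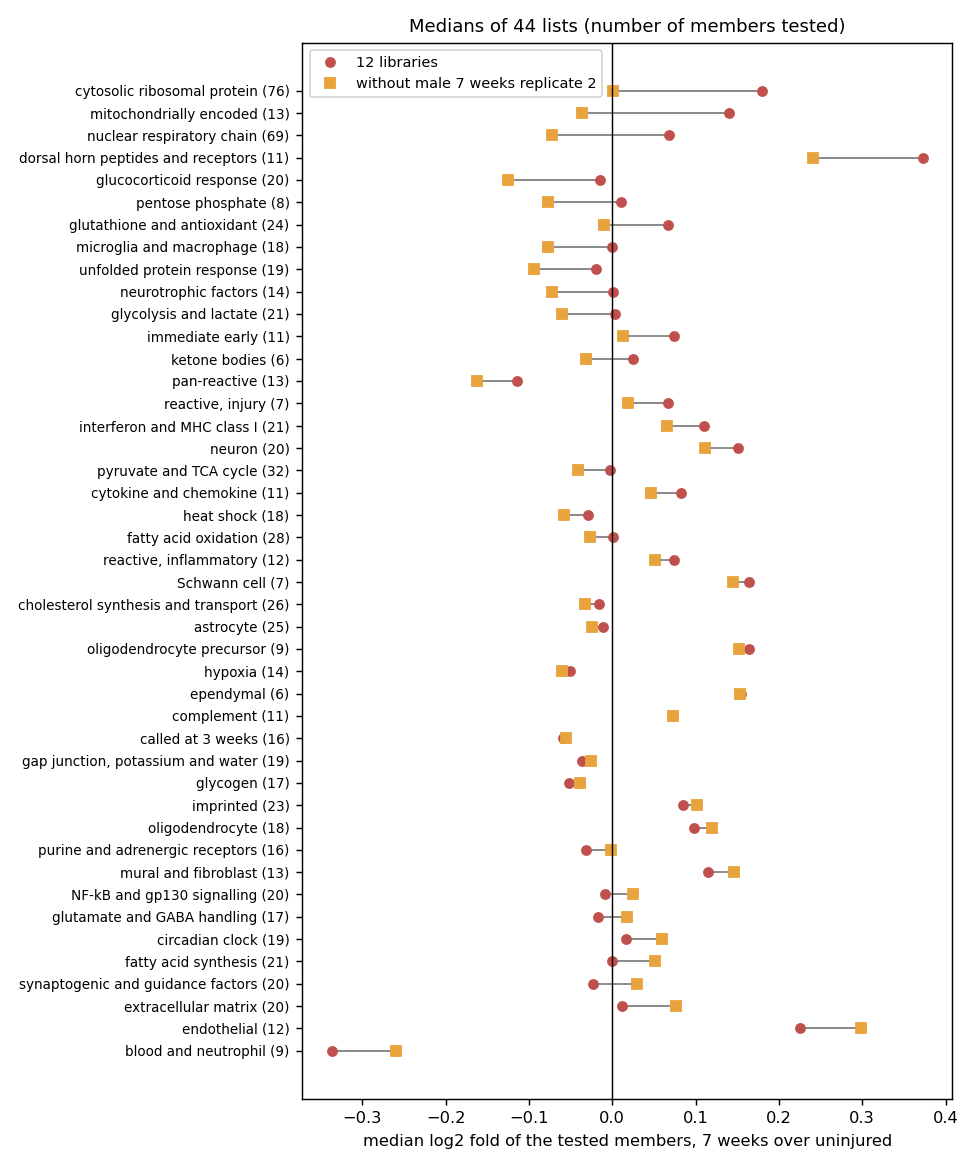
Median log2 fold of 7 weeks over uninjured among the tested members of 44 lists, from 12 libraries (red circles) and from 11 without male 7 weeks replicate 2 (orange squares), ordered by the signed gap between them. The ribosomal list moves from 0.18 to 0.00097 and the respiratory chain list from 0.068 to -0.072, the widest gaps among lists of over 20 genes.

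No gene of the reactive astrocyte lists was called at 7 weeks. Of 13 pan-reactive genes, those common to several kinds of injury, 5 had higher values with a median log2 fold of -0.11, and 4 without male 7 weeks replicate 2 with a median of -0.16. By sex, 5 of 13 had higher values in females (median -0.092) and 9 in males (median 0.16), or 8 in males without replicate 2 (median 0.053). The mean log2 CPM of the list was 5.08 in female uninjured replicate 2 and 3.22 to 3.63 in the other uninjured libraries. Female uninjured replicate 2 set the lowest folds of that list. Lcn2, a secreted iron-trapping protein of acute inflammation, had 0.270, 0.420 and 0.546 CPM at 7 weeks, against 0.22 to 0.78 CPM in 5 of the uninjured libraries and 43.8 CPM in the sixth, female uninjured replicate 2. Steap4, a metal reductase that responds to inflammation, had 0.182, 0.440 and 0.737 CPM at 7 weeks, against 14.7 CPM in the same library and 0.14 to 0.60 CPM in the other 5. The log2 folds of -4.09 ± 1.44 and -2.61 ± 1.14 rested on that 1 library, and without it they were -0.14 and -0.047. Serpina3n, a protease inhibitor much used as a reactive marker, had 91.1, 104 and 116 CPM at 7 weeks and 88.2, 97.02 and 194 CPM without injury, the highest again in female uninjured replicate 2, and log2 folds of -0.11 ± 0.15 and, without male 7 weeks replicate 2, -0.16 ± 0.20. The filament Vim had 86.6, 111 and 142 CPM at 7 weeks and 85.6, 104 and 115 CPM without injury, with log2 folds of 0.10 ± 0.11 and 0.049 ± 0.13. Of the genes tied to reactivity of the inflammatory kind, 9 of 12 had higher values (median 0.074), and 9 of 13 without male 7 weeks replicate 2 (median 0.051). C3, the complement component often used for that state, had 154, 242 and 321 CPM at 7 weeks and 204, 249.7 and 385 CPM without injury, a log2 fold of -0.11 ± 0.12 and -0.031 ± 0.12 without male 7 weeks replicate 2. Of 21 interferon and MHC class I genes 15 had higher values (median 0.11), also 15 without that library (median 0.065). The sexes differed in this list. In females 8 of 21 had higher values (median -0.045) and in males 16 (median 0.17), also 16 in males without replicate 2 (median 0.18). The smallest p-values of this list were at the class I heavy chain H2-D1 and the immunoproteasome subunit Psmb8. H2-D1 had 156, 160.1 and 192 CPM at 7 weeks and 126, 143 and 167 CPM without injury, with log2 folds of 0.19 ± 0.08 and 0.14 ± 0.067. Psmb8 had 6.81, 10.3 and 12.3 CPM at 7 weeks and 4.86, 7.34 and 11.03 CPM without injury, with log2 folds of 0.41 ± 0.18 and 0.34 ± 0.18. In both genes the groups overlapped.

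No chaperone gene was called, and more of them had lower than higher values at 7 weeks in both sexes together. Of 18 heat shock genes 12 had lower values with the library (median -0.029) and 17 without it (median -0.057), of which 5 had an unadjusted p under 0.05, beside 3.01% of all genes. By sex, 16 of 18 had lower values in females (median -0.073) and 8 of 18 in males (median 0.017), or 14 in males without replicate 2. Hsph1, a large cytosolic chaperone, had 66.9, 78.2 and 87.00 CPM at 7 weeks and 79.6, 85.8 and 112 CPM without injury, with log2 folds of -0.20 ± 0.085 and -0.22 ± 0.08. For Hsf1, the transcription factor of the heat shock response, the folds were -0.21 ± 0.10 and -0.24 ± 0.099. Of 19 genes of the unfolded protein response in the endoplasmic reticulum 15 had lower values in both fits, and the median was -0.02 with the library and -0.094 without it. Hspa5, the main chaperone of that compartment, had 381, 396 and 445 CPM at 7 weeks and 401, 422 and 491 CPM without injury. Its log2 fold was -0.11 ± 0.066 with the library and -0.15 ± 0.053 without it, and the groups overlapped. Xbp1, a transcription factor of the response, had log2 folds of -0.17 ± 0.091 and -0.21 ± 0.086. Median transcript length was 893.75 bases in the heat shock list and 1064 in the unfolded protein response list, beside 1495 over all genes tested. Without male 7 weeks replicate 2, 35.7% of genes with at least 10 CPM and 747.5 to 1046 bases had higher values. In the longest group, of 2774 bases and over, 62.2% had. The part of transcript length in these lists was not tested.

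Glucocorticoid-responsive genes varied widely between libraries of the same state, and none was called. Of 20 such genes 14 had lower values at 7 weeks (median -0.015), 15 without male 7 weeks replicate 2 (median -0.13). The cochaperone Fkbp5 had 58.2, 92.4 and 130.001 CPM at 7 weeks and 56.3, 98.5 and 258 CPM without injury, and the highest value was that of female uninjured replicate 1. That library also had the highest Tsc22d3, a glucocorticoid-induced repressor of inflammation, at 803 CPM, while the other uninjured libraries had 389.9 to 509.9 CPM and the 7 week libraries 358 to 615 CPM. Glul, the glutamine synthetase, was highest there too, at 11340.2 CPM, beside 7880.2 to 9733 CPM at 7 weeks. The transcription factor Zbtb16 had 11.03, 18.8 and 35.1 CPM at 7 weeks and 12.6, 26.98 and 61.1 CPM without injury, a log2 fold of -0.61 ± 0.29 and -0.54 ± 0.35 without male 7 weeks replicate 2. The clock gene Per1 had log2 folds of -0.0011 ± 0.11 and 0.059 ± 0.11. Its relative Per3 had 15.1, 25.8 and 29.2 CPM at 7 weeks and 16.7, 21.8 and 23.7 CPM without injury, and without male 7 weeks replicate 2, which was its lowest, the groups did not overlap and the log2 fold was 0.31 ± 0.083 (edgeR adjusted p 0.661). The hour of tissue collection is not stated in the sources used here.

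The genes with the smallest p-values are values, not changes, because none passed the test. Groups did not overlap for 8 genes with higher values at 7 weeks (0.0536% of genes tested) and 9 with lower values (0.0603%). Tmem81, a membrane protein gene, had 3.32, 3.77 and 4.46 CPM at 7 weeks and 2.25, 2.66 and 2.87 CPM without injury, a log2 fold of 0.57 ± 0.14 and 0.53 ± 0.15 without male 7 weeks replicate 2. Rab3b, a small GTPase of vesicle release, had 3.82, 4.68 and 5.76 CPM at 7 weeks and 2.89, 3.38 and 3.67 CPM without injury, with log2 folds of 0.52 ± 0.13 and 0.48 ± 0.14. Both were higher in all 6 libraries at 7 weeks than in any uninjured library. Ocln, the tight junction protein occludin, had 1.23, 1.92 and 2.59 CPM at 7 weeks and 0.530, 0.956 and 1.45 CPM without injury, a log2 fold of 1.02 ± 0.27 and 1.12 ± 0.27, and its groups overlapped. Apoc1, an apolipoprotein, had 8.59, 12.5 and 14.1 CPM at 7 weeks and 6.86, 8.96 and 10.2 CPM without injury, with log2 folds of 0.44 ± 0.12 and 0.34 ± 0.095. Among genes with lower values, Tmem186 had 15.6, 17.8 and 19.8 CPM at 7 weeks and 19.9, 21.1 and 22.03 CPM without injury, and Utp14a, a factor of ribosome assembly, had 5.51, 6.16 and 6.70 CPM at 7 weeks and 6.86, 7.34 and 8.40 CPM without injury. Neither overlapped between the states, and the log2 folds were -0.24 ± 0.078 for Tmem186 and -0.28 ± 0.093 for Utp14a, or -0.27 ± 0.074 and -0.28 ± 0.10 without male 7 weeks replicate 2. Another factor of ribosome assembly, Nop2, had 10.8, 11.05 and 13.7 CPM at 7 weeks and 12.7, 13.8 and 16.1 CPM without injury, with log2 folds of -0.28 ± 0.09 and -0.27 ± 0.092. Angptl4, a secreted inhibitor of lipoprotein lipase, had 1.69, 2.40 and 2.97 CPM at 7 weeks and 2.85, 3.37 and 4.63 CPM without injury, with log2 folds of -0.62 ± 0.18 and -0.60 ± 0.19.

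Without male 7 weeks replicate 2, groups did not overlap for 31 genes with higher values (0.203%) and 52 with lower values (0.341%). Among genes tested in both fits the smallest p was at Srsf9, a splicing factor, which had 58.2 CPM in male 7 weeks replicate 2 and 26.5 to 31.9 CPM in the other 7 week libraries, against 32.7 to 39.1 CPM in uninjured libraries. All 5 other libraries at 7 weeks lay below every uninjured library and the remaining one above. The log2 fold was -0.16 ± 0.16 in 12 libraries and -0.38 ± 0.068 in 11. It missed the threshold in edgeR (adjusted p 0.202), while DESeq2's test on the same 11 libraries called it, as its only gene, at a log2 fold of -0.39 ± 0.075 and an adjusted p of 0.00431. Phf5a, a subunit of the splicing factor SF3b, followed the same order, with 32.9 CPM in male 7 weeks replicate 2 and 16.9 to 18.9 CPM in the other 7 week libraries, against 21.2 to 24.03 CPM. Its log2 fold was -0.15 ± 0.13 with and -0.33 ± 0.069 without that library, adjusted p 0.479 in edgeR. Ndn, the imprinted growth suppressor necdin, had 79.9 CPM in that library and 49.5 to 60.7 CPM in the other 7 week libraries, against 64.7 to 74.9 CPM, with log2 folds of -0.19 ± 0.096 and -0.30 ± 0.061. The helicase Ddx27 had log2 folds of -0.28 ± 0.11 and -0.38 ± 0.081. Higher without that library were Mr1, a relative of MHC class I that presents vitamin metabolites, and Fem1c, a substrate receptor of a ubiquitin ligase. Mr1 had 40.2 CPM in male 7 weeks replicate 2 and 50.8 to 56.8 CPM in the other 7 week libraries, against 43.1 to 48.8 CPM, with log2 folds of 0.17 ± 0.078 and 0.23 ± 0.055. For Fem1c the log2 folds were 0.19 ± 0.087 and 0.26 ± 0.062. For each of these genes male 7 weeks replicate 2 lay on the far side of the uninjured libraries from the other 5.

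Several long noncoding RNAs are retained in the nucleus, away from ribosomes, and 10 of them were chosen after their values had been seen. Tsix was at 0 in all libraries used, and the other 9 all had higher values at 7 weeks, none called. Xist, the RNA that coats the inactive X chromosome, had the smallest p of all genes (unadjusted p 8.45e-05, edgeR adjusted p 1.00). It had 11.2, 13.4 and 43.1 CPM in female 7 week libraries, against 3.66, 5.67 and 6.50 CPM in female uninjured libraries, and at most 0.14 CPM in any male library. The female groups did not overlap, and the log2 fold within females was 2.10 ± 0.40, again not called. Input libraries of females held 60.2 CPM at 7 weeks and 67.2 CPM without injury, here scaled to library totals without TMM. Malat1, an abundant RNA of nuclear speckles, had 22.6, 36.6 and 88.6 CPM at 7 weeks and 17.6, 24.2 and 33.1 CPM without injury, with log2 folds of 0.80 ± 0.25 and 0.69 ± 0.31 without male 7 weeks replicate 2. Meg3, an imprinted RNA that is abundant in neurons, had 51.3, 83.1 and 275 CPM at 7 weeks and 45.2, 54.96 and 97.4 CPM without injury, with log2 folds of 0.86 ± 0.31 and 0.98 ± 0.34. The highest 7 week value of Xist, Malat1, Meg3 and the other 6 belonged to female 7 weeks replicate 3. Without that library the log2 folds were 1.18 for Xist, 0.52 for Malat1, 0.49 for Meg3 and 0.46 for Snhg11, against 0.89 ± 0.36 for Snhg11 with it. The fold of Xist also depended on the fit, at 2.07 ± 0.41 in the 12 libraries and 1.16 in DESeq2's test. It was 0.24 with all Trap libraries in the fit, where the effect is averaged over females and males. With the replicate number as a block Xist was called in the fit of both sexes together, at 1.92 ± 0.25 (edgeR adjusted p 0.00825). The same block called Xist in females, at 1.95 ± 0.24 (edgeR adjusted p 0.0095), and 0 genes in males. No source used here says that the numbers pair libraries. Female 7 weeks replicate 3 also had the highest summed neuron, oligodendrocyte and endothelial markers of the 12 libraries. It had the lowest oligodendrocyte precursor sum, yet the highest mean log2 CPM of that list, at 3.19 against 2.17 to 2.94 in the others. Its log2 ratio of summed neuron, oligodendrocyte, microglia and endothelial markers to astrocyte markers was -3.55, while the other 5 libraries at 7 weeks lay between -4.46 and -4.01 and the 6 uninjured libraries between -4.72 and -3.86. The part of this carry-over in the noncoding RNAs was not tested beyond a fit with the ratio as a covariate, in which the log2 fold of Xist was 1.57 and that of Meg3 0.74, neither called.

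**Figure D5:**
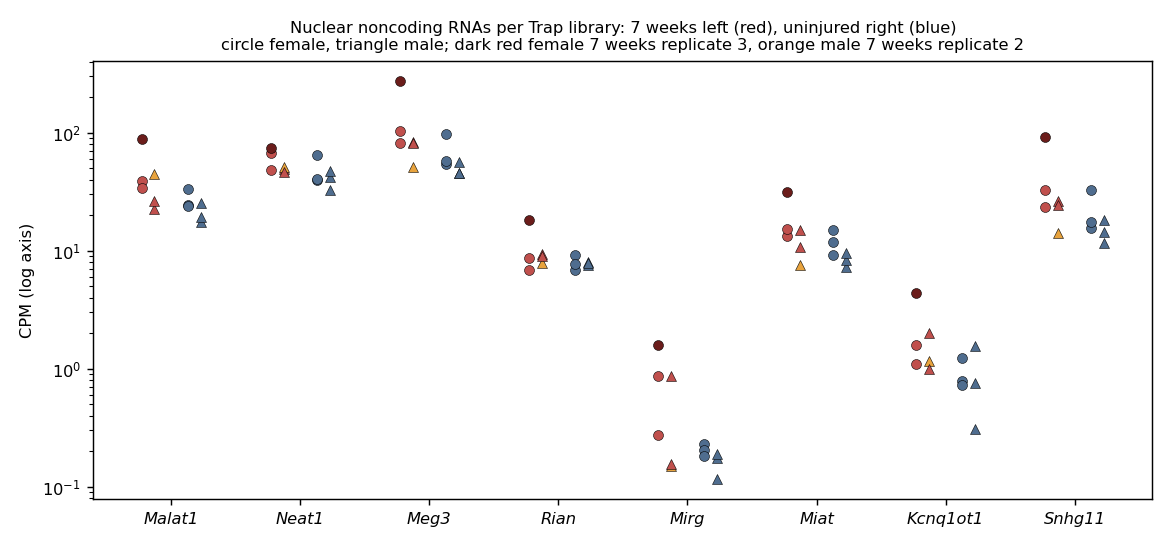
CPM, on a log axis, of 8 nuclear noncoding RNAs in each Trap library, 7 weeks to the left (red) and uninjured to the right (blue), with circles for females and triangles for males. Female 7 weeks replicate 3 (dark red) is the highest point of every gene, at 275 CPM for Meg3 and 88.6 CPM for Malat1; Xist is not drawn.

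Of the markers of cells other than astrocytes none was called. All 12 tested endothelial markers had higher values with the 12 libraries (median 0.23) and without male 7 weeks replicate 2 (median 0.30). Leaving out any 1 library gave medians of 0.092, without female 7 weeks replicate 3, to 0.35, without female uninjured replicate 3. Their summed level was 9.98 to 17.3 CPM at 7 weeks and 8.33 to 14.1 CPM without injury, so the ranges overlapped. Cldn5, the tight junction claudin of blood vessels, had 0.921, 1.35 and 2.18 CPM at 7 weeks and 0.567, 1.06 and 1.45 CPM without injury, with log2 folds of 0.41 ± 0.21 and 0.48 ± 0.23. Neuron markers had 18 of 20 higher (median 0.15) and 17 without the library (median 0.11). The neuron median was 0.061 with the carry-over ratio as a covariate and 0.081 without female 7 weeks replicate 3, and 0.059 without male uninjured replicate 3. The sodium channel Scn2a had 2.06, 2.91 and 5.10 CPM at 7 weeks and 1.88, 2.21 and 2.83 CPM without injury, with log2 folds of 0.50 ± 0.19 and 0.58 ± 0.19. Of 19 dorsal horn peptide and receptor genes, which neurons express, 11 passed the filter on low counts and 10 of these had higher values, against 11 of 13 without the library. The dynorphin gene Pdyn had 0.986, 1.20 and 2.67 CPM at 7 weeks and 0.814, 0.952 and 1.37 CPM without injury, and log2 folds of 0.56 ± 0.28 and 0.64 ± 0.29. Oligodendrocyte markers had 16 of 18 higher with the library (median 0.099) and 13 without it. That median turned to -0.019 without female 7 weeks replicate 3 and -0.027 without male uninjured replicate 3. It was -0.024 with the carry-over ratio as a covariate, and within males 6 of 18 were higher. The ratio is built from these same neuron and oligodendrocyte markers, so the medians adjusted for it are no separate check on either list. Higher values were found for microglia and macrophage markers in 9 of 18 with the library and 7 of 18 without it. Blood and neutrophil genes had 9 of 9 tested lower in both fits, with a summed level of 435 to 1829.7 CPM at 7 weeks and 771 to 2269.7 CPM without injury. Prx, the periaxin gene of Schwann cells, the myelin cells of peripheral nerve, had 4.14 CPM in female 7 weeks replicate 1, while the other 7 week libraries had 0.38 to 1.34 CPM and the uninjured libraries 0.31 to 0.67 CPM. Its log2 fold of 1.65 ± 0.48 became 1.01 without that library, and it was 1.67 ± 0.52 without male 7 weeks replicate 2.

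No gene was called within either sex when all 12 libraries were fitted without a replicate block. Within females 0 of 14933 genes were called by edgeR (0%), with 341 at an unadjusted p under 0.05 (2.28%) and 0 called and 285 such genes by DESeq2. Within males 0 were called (0%), with 293 at an unadjusted p under 0.05 (1.96%) and 0 called and 270 such genes by DESeq2. Without male replicate 2 the males had 0 of 15259 called (0%) and 754 at an unadjusted p under 0.05 (4.94%). The difference of the 7 week effect between females and males was tested as an interaction, which called 0 genes in edgeR (0%, 247 or 1.65% at an unadjusted p under 0.05) and 0 in DESeq2 (208). Without male 7 weeks replicate 2 that test again called 0 (0%), with 351 at an unadjusted p under 0.05 (2.3%). The median standard error was 0.17 log2 units within a sex and 0.24 for the difference, so the design resolves less here than in both sexes together (0.12). The smallest p-values of the difference with higher female effects, among genes the naming rule allows, included the RNA-binding protein Zc3h11a, at 0.57 ± 0.24 in females and -0.64 ± 0.24 in males. Among those with higher male effects was Cebpb, a transcription factor of inflammatory responses, at -1.09 ± 0.36 in females and 0.98 ± 0.41 in males, 0.38 without male replicate 2. Cytosolic ribosomal protein genes had a median log2 fold of 0.075 in females, 0.31 in males and -0.073 in males without replicate 2.

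A list of 16 genes called 3 weeks after fracture in these same libraries was followed to 7 weeks. They were fitted again in 1 model of all 24 Trap libraries, male 7 weeks replicate 2 included, and since every time is set against the same 6 uninjured libraries, the folds are not independent. In that model 17 genes were called at 3 weeks (0.111% of 15380), 0 at 5 weeks (0%, 425 or 2.76% at an unadjusted p under 0.05) and 0 at 7 weeks (0%, 438 or 2.85%). Rflnb, a partner of the actin linker filamin, had log2 folds of -0.75 ± 0.095 at 3 weeks, -0.40 ± 0.093 at 5 weeks and -0.19 ± 0.092 at 7 weeks. Nnat, an imprinted membrane proteolipid, had 0.50 ± 0.077, -0.0025 ± 0.077 and 0.035 ± 0.077 at 3, 5 and 7 weeks. The difference of 7 from 3 weeks, which does not use the uninjured libraries, was called for 3 genes (0.0195%). Among them were Rflnb at 0.57 ± 0.095 and Nnat at -0.47 ± 0.077 (edgeR adjusted p 0.0204 each). That difference does use the 3 week libraries by which the 16 genes were chosen. The choice itself favours larger folds at 3 weeks than later, so the contrast is no independent test of these genes. Smoc1, a secreted matrix protein, had 0.62 ± 0.10, 0.35 ± 0.10 and 0.28 ± 0.10 at the 3 times. In the 12 libraries it had 23.4, 30.5 and 35.03 CPM at 7 weeks and 21.5, 24.7 and 25.97 CPM without injury, unadjusted p 0.00229. Its log2 fold without male 7 weeks replicate 2 was 0.32 ± 0.067 (edgeR adjusted p 0.479). Rassf10, which takes part in cell division, had 0.89 ± 0.17, 0.33 ± 0.18 and 0.41 ± 0.18, and Mat2a, which makes the methyl donor of the cell, had -0.64 ± 0.11, -0.37 ± 0.11 and -0.25 ± 0.11. The actin-binding Svil had -0.82 ± 0.14, -0.17 ± 0.14 and -0.26 ± 0.14, and the water channel Aqp6 had -0.73 ± 0.11, -0.30 ± 0.10 and -0.16 ± 0.10. Gja1 had -0.33 ± 0.064 at 3 weeks and -0.034 ± 0.064 at 7 weeks, and the adhesion molecule Bcam -0.33 ± 0.063 and -0.021 ± 0.062. None of the 16 genes followed was called at 7 weeks.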

How the data were processed

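Trap libraries hold RNA pulled down with HA-tagged astrocyte ribosomes from homogenized lumbar spinal cord, and Input libraries hold RNA of the same tissue without the pull-down. The authors deposited a table of estimated counts per gene for all samples, made with FastQC, Trim Galore, STAR and RSEM on GRCm38, per the submitters' processing notes. The sources used here give neither tool versions nor the annotation release. The deposited estimated counts are not normalized, and they were rounded to whole numbers. Symbols were looked up by gene ID in the reference table, and the 797 of 55938 genes with none, which held 0.301% of counts, were kept under their IDs. RSEM shares out reads that fit several near-identical genes, so values of ribosomal protein, haemoglobin and other multigene families are less certain.

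Samples were grouped by their titles. Genes were kept by edgeR's filterByExpr, scaled by TMM and tested with edgeR's quasi-likelihood test (glmQLFit, robust), two-sided, with Benjamini-Hochberg adjustment over all genes tested, after the procedure had been tested on simulated data (R 4.3.3, edgeR 4.0.16, limma 3.58.1, DESeq2 1.42.0). Libraries held 17124034 to 23189228 counts. Intervals are unadjusted 95% intervals of the fit. Transcript lengths are medians over GENCODE M21 transcripts. The genes named were a fixed panel, the smallest p-values in each direction with a mean of at least 1 CPM, the 2 members of each list with the smallest p and the genes called at 3 weeks. Nuclear noncoding RNAs, Rpl41, Rpl39 and Srcap were added after their values were seen. Not every gene chosen this way is reported here. The comparison, the panel and the 44 lists were chosen with earlier results of these data known. Alternatives were DESeq2's size factors and test, no filter on low counts, all Trap libraries in the fit, a replicate block, each library left out in turn and a fit with the carry-over ratio as a covariate. Applying them to the added genes, and the medians by transcript length without male 7 weeks replicate 2, were chosen after seeing the data.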

Additional observations from a re-analysis of the deposited data

Results flagged for a closer look

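These values stood apart from the other 5 of their group of 6 by Dixon's criterion. Chance meets it in about 1 in 20 groups that are picked without regard to their values. Many genes here were named for small p-values or added after their values were seen, so that rate does not hold for them. No cause was tested.

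Male 7 weeks replicate 2 was low at 7 weeks for Aqp4 (1708 CPM), Slc1a2 (7383 CPM), Mr1 (40.2 CPM), Fem1c (19.2 CPM) and Per3 (15.1 CPM). It was high for Apoe (28512 CPM), Ldhb (2373 CPM), Srsf9 (58.2 CPM), Ndn (79.9 CPM), Phf5a (32.9 CPM), Ddx27 (21.1 CPM), Rpl34 (121 CPM) and Rpl41 (123 CPM). It also stood apart for H2-D1 (192 CPM) and Pdk1 (31.7 CPM). Its mean log2 CPM stood apart for the lists of the pyruvate and tricarboxylic acid cycle (7.83), fatty acid synthesis (7.08), nuclear respiratory chain (7.92), cytosolic ribosomal proteins (7.18), glutathione and antioxidants (7.65), NF-kB and gp130 signalling (3.59) and synaptogenic and guidance factors (4.96). Its median correlation with the other 11 libraries was 0.971.

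Female 7 weeks replicate 3 was high for Meg3 (275 CPM), Malat1 (88.6 CPM) and Snhg11 (92.2 CPM). Female 7 weeks replicate 1 was high for Prx (4.14 CPM) and Glul (9733 CPM). Male 7 weeks replicate 1 stood apart for Nop2 (13.7 CPM).

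Female uninjured replicate 1 stood apart for Glul (11340.2 CPM), Tsc22d3 (803 CPM), Fkbp5 (258 CPM), Hk2 (7.08 CPM), Hsph1 (112 CPM), Rassf10 (2.17 CPM), the cytokine and chemokine list (mean log2 CPM 2.95) and the list of genes called at 3 weeks (5.38). Female uninjured replicate 2 stood apart for Lcn2 (43.8 CPM), Steap4 (14.7 CPM), Serpina3n (194 CPM), Meg3 (97.4 CPM), Snhg11 (32.8 CPM), Nnat (381 CPM) and the pan-reactive (5.08) and injury (4.01) lists of reactive genes. Female uninjured replicate 3 stood apart for Hsf1 (22.7 CPM) and male uninjured replicate 2 for Per3 (16.7 CPM).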

How the results depend on the processing

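The count of called genes stayed at 0 in both sexes together with DESeq2's size factors, DESeq2's test, no filter on low counts, all Trap libraries in the fit and the carry-over ratio as a covariate. Leaving out each library in turn gave 0 to 1 called genes in both sexes together, the 1 being Gm16867 without male 7 weeks replicate 3. The range was 0 to 0 in females and 0 to 1 in males, again Gm16867. Without male 7 weeks replicate 2, no filter gave 1 called gene (Gm28539) and DESeq2's test 1 (Srsf9). The causes were not tested. Same-numbered libraries of the 2 states deviated together with correlations of -0.035, 0.025 and 0.087 in females and 0.078, 0.12 and -0.031 in males. Only male replicate 2 passed 0.1, the level set for taking numbers as pairs. Different-numbered libraries of the 2 states within a sex had correlations of -0.12 to 0.075. Column headers share a prefix between same-numbered libraries of a sex in most cases, which no source used here explains. With the number as a replicate block 1 gene was called in both sexes together, 1 without male 7 weeks replicate 2 and 1 in females (Xist each time). In males that block called 0, and a block within sex called 4 in both sexes together. Leaving out male 7 weeks replicate 2 turned the sign of 13 of 155 gene folds and 11 of 44 list medians. No setting moved the median log2 fold of all genes by more than 0.0079. Normalization holds that median near 0 in every fit, so it does not show how far single genes depend on the setting. Few intervals of the dorsal horn, endothelial and blood lists lay inside 1.5-fold.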
